A study of Mus musculus with 10 samples.

Results

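The comparison is between bone marrow macrophages of 2 origins after exposure to lipopolysaccharide (LPS), a component of the Gram-negative bacterial cell wall. Its members are 3 libraries from resident macrophages and 2 from bone marrow derived macrophages (BMDM), all LPS-treated, chosen by their source labels, which makes 5 of the 10 RNA sequencing libraries of the study. The other 5 libraries, 3 of untreated resident macrophages and 2 of untreated BMDM, gave the starting point of each gene. All cells came from the femur and tibia of C57BL/6 mice aged 12 weeks. Resident macrophages, labelled CD163+, were the cells that a magnetic column held back with no staining. BMDM, labelled CD163-, were grown from the cells that ran through the column, in medium with 20% L929 cell supernatant, a source of macrophage colony-stimulating factor, for a time given as 6 days in the protocol and as 7 days in the titles. LPS was given at 1 µg/ml for 4 h, and untreated cells of each origin went without it. The question taken up here is which effector transcripts of the LPS response reached equal levels in macrophages of both origins and which stayed apart. The labels do not say whether libraries came from separate animals or cultures, so the p-values measure only the spread between these libraries, which may be technical.

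LPS is passed by LPS-binding protein and CD14 to Toll-like receptor 4 on the macrophage surface. The adaptor MyD88 then leads to NF-kB and to cytokine and chemokine genes, while the adaptor TRIF leads to interferon beta, which acts back on the cells through its receptor and turns on the interferon response genes. Inhibitors such as IkB proteins, A20 and SOCS proteins are themselves induced and limit the response. In the bone marrow, resident macrophages of the CD163+ kind sit in erythroblastic islands, where they take up expelled nuclei and recycle heme iron.

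Expression was measured as the authors' normalized read counts in 13809 genes, of which 13755 were tested with limma on log2(value + 1) in a single model of all 4 groups. Differences are resident minus BMDM on that log2 scale, with the standard error (SE), and 2-sided p-values carry the Benjamini-Hochberg adjustment over all genes tested. A gene was called at an adjusted p under 0.05, and it was counted as apart where it was called and differed by at least 2-fold. Since a missed call does not show equality, a gene was counted as level only where a pair of one-sided limma tests placed its difference within 2-fold, again at an adjusted p under 0.05. A gene was counted as converged where it was apart without LPS, level with LPS and called for the change of the gap between origins. It was counted as crossed where it was apart in both states with the order of the origins turned, and as diverged where it was level without LPS and apart with it. These classes are set by the values themselves, so their counts are descriptions.

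Each library held between 27.1 and 37.7 M gene reads, as recovered from the steps of its values. The deposited values summed to between 29.9 and 32.4 M in LPS-treated resident libraries and to 38.6 and 38.8 M in LPS-treated BMDM. Replicate 1 of each resident group stood apart: the Y-linked genes Ddx3y, Eif2s3y, Kdm5d and Uty were above the lowest value of 1 in these libraries alone. Xist stood at 1651 and 2172 there against 7873 to 13871 elsewhere. Counts without these libraries follow below. LPS-treated libraries correlated across genes at 0.983 to 0.990 within the resident group, 0.995 within BMDM and 0.849 to 0.868 between origins. The resident libraries were the more variable, with 11.6% of genes spanning 2-fold or more among the 3 of them against 3.26% between the BMDM libraries.

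The labels were checked against marker genes. Cd163, the hemoglobin scavenger receptor that gives the resident cells their label, stood at 6476, 4131 and 4918 in LPS-treated resident libraries and at 14.4 and 14.9 in LPS-treated BMDM. A list of 16 erythroblastic island macrophage genes summed to between 1.14% and 1.37% of the resident library totals and to 0.345% and 0.347% of BMDM totals. A list of 13 genes of resident and bone marrow derived macrophages pointed the other way, at 0.399% to 0.4995% in resident libraries and 2.75% and 2.77% in BMDM. With no overlap, 10 of its 13 genes were higher in BMDM and 3, among them Cd163 and Mrc1, higher in resident libraries. Lyz2, Gpnmb and Mmp12 made up most of the BMDM sum, so it does not measure how much of each library was macrophage RNA. Adgre1, which encodes the macrophage surface protein F4/80, was at 15390, 11165 and 11436 in resident and 37213 and 35511 in BMDM libraries (-1.54 ± 0.23). The resident fraction also held transcripts of other marrow cells. All 17 neutrophil markers were higher there with no overlap and summed to 1.05% to 1.27% of the total, against 0.00553% and 0.00570% in BMDM, where Ly6g and Retnlg had no reads. Erythroid markers (13 of 13 higher) summed to 0.145% to 0.181% against 0.00418% and 0.00445%, megakaryocyte and platelet markers (9 of 10) to 0.0626% to 0.179% against 0.00847% and 0.00876%, and B lineage markers (12 of 12) to 0.0171% to 0.0261% against 0.000983% and 0.000992%. T and NK cell markers (7 of 9 higher) summed to 0.00791% to 0.00862% against 0.00319% and 0.00355%. Cd4 made up most of the resident sum, at 2427, 1968 and 1925 against 627 and 719. Lck went the other way, at 113, 132 and 142 against 577 and 605. Stromal and endothelial, granulocyte and mast cell, and progenitor markers were also higher in resident libraries, for 11 of 12, 12 of 13 and 10 of 10 genes. Over all genes tested, 42.3% were higher in resident libraries with no overlap and 40.2% higher in BMDM. In bulk samples such as these, fewer cells of a type and less RNA per cell cannot be told apart, and the part of other marrow cells in the gene differences below was not tested except where a value is given.

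**Figure D1:**
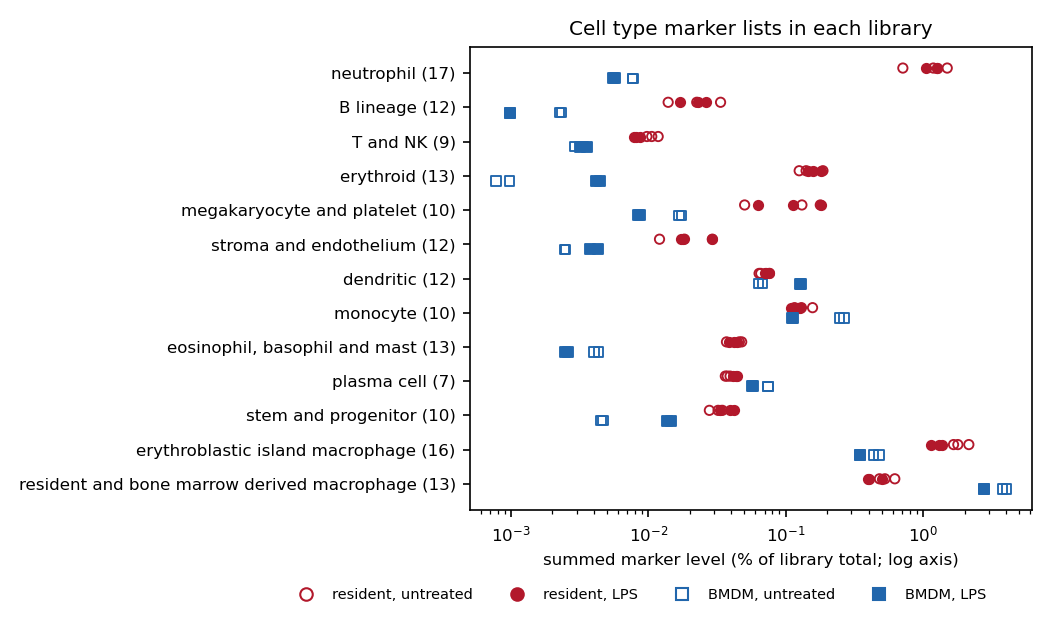
Summed level of each cell type marker list (vertical axis, number of genes in parentheses) as a percent of the library total (horizontal axis, log scale), with a point per library for resident (circles) and BMDM (squares), open for untreated and filled for LPS-treated. Neutrophil markers sit between 1.05% and 1.27% in LPS-treated resident libraries and at 0.00553% and 0.00570% in BMDM. The sum of the resident and bone marrow derived macrophage list is lower in resident libraries.

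With LPS, 5050 genes (36.7%) were called higher in resident macrophages and 4752 (34.5%) higher in BMDM. Of these, 3234 (23.5% of all genes tested) were apart in favour of resident cells and 2054 (14.9%) in favour of BMDM. Level genes numbered 5756 (41.8%). The libraries of the origins did not overlap for 5813 genes (42.3%) higher in resident cells and 5524 (40.2%) higher in BMDM. Without LPS the corresponding numbers were 3395 genes apart and higher in resident cells (24.7%), 2075 apart and higher in BMDM (15.1%) and 5725 level (41.6%). These came from libraries that the LPS comparison does not share, although the labels do not say whether animals were shared. The gap between origins changed with LPS for 5752 genes (41.8%). Most differences of at least 2-fold were present in both states: 2211 genes (16.1%) were apart and higher in resident cells in both, and 1060 (7.71%) were apart and higher in BMDM in both. Converged genes numbered 793 (5.77%), diverged genes 744 (5.41%) and crossed genes 288 (2.09%). Without the libraries that carry Y-linked transcripts, 851 genes converged, 996 diverged and 298 crossed. The split of the calls depended on the scaling, since with library totals set equal the median of all genes moved from 0.03 to 0.35 and 6598 genes were called higher in resident cells against 3077 in BMDM.

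**Figure D2:**
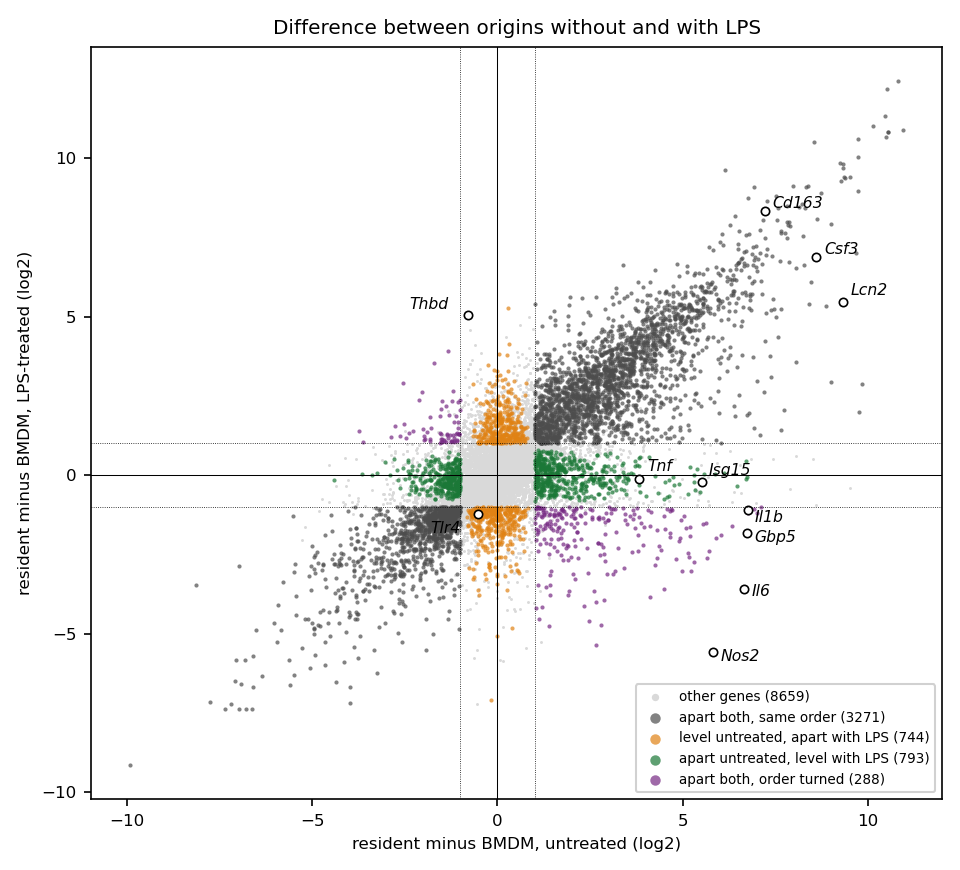
Difference between origins without LPS (horizontal axis) and with LPS (vertical axis), both resident minus BMDM in log2 units, with a point per gene tested and dotted lines at 2-fold. Tnf and Isg15 lie near 0 with LPS, the genes from Il1b to Nos2 lie below -1 after starting above 1, and Lcn2, Csf3 and Cd163 stay far above 1.

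The gap closed or turned mainly on the BMDM side. Of the 793 converged genes, 628 (79.2%) changed at least 2-fold with LPS in BMDM and not in resident cells, 30 in both, 1 in resident cells alone and 134 in neither. BMDM transcripts rose for 418 and fell for 240 of them. Before LPS, 479 of the converged genes had been higher in resident cells and 314 higher in BMDM. Of the 288 crossed genes, 223 ended higher in BMDM and 65 higher in resident cells, and 244 changed at least 2-fold in BMDM alone. Over all genes tested, 4073 (29.6%) changed at least 2-fold in BMDM alone and 75 in resident cells alone. The LPS responses use the same LPS-treated libraries as the comparison of origins, so these counts describe how the classes arose and are not separate evidence.

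**Figure D3:**
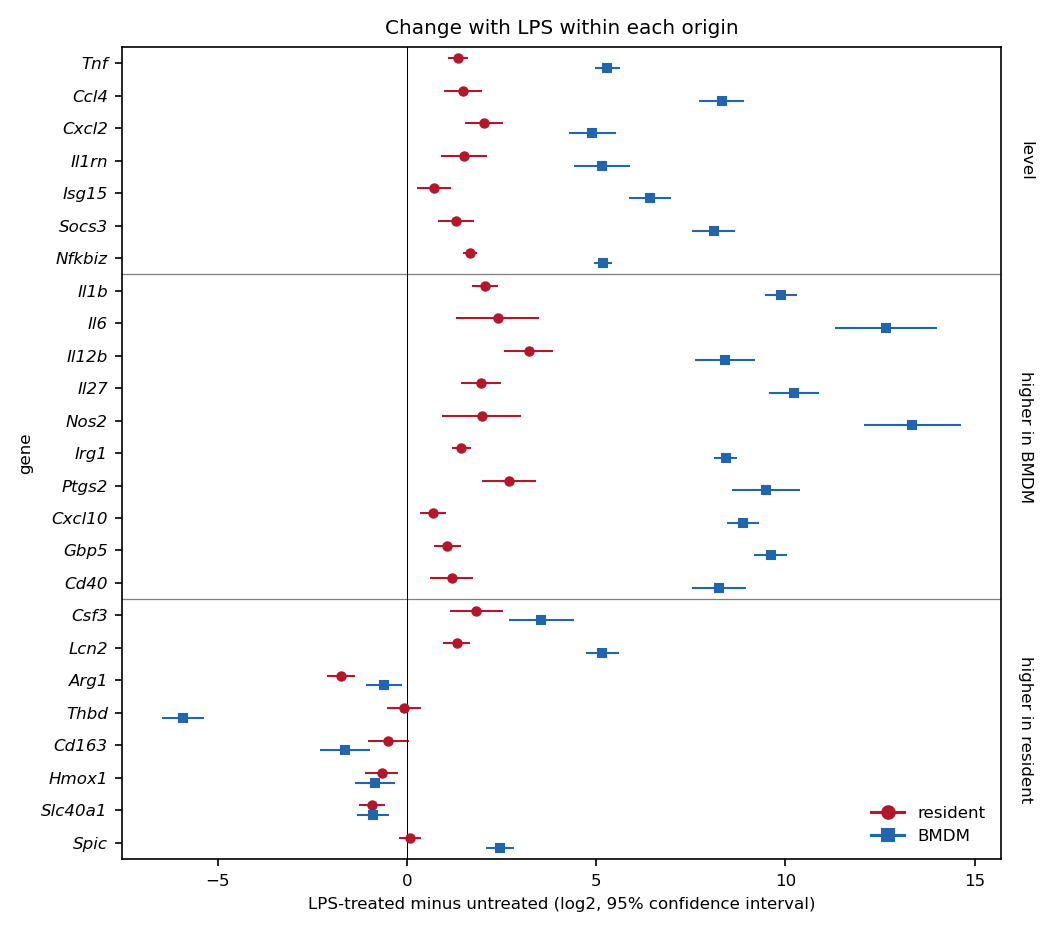
Change with LPS within each origin for 25 effector genes (horizontal axis, log2 of LPS-treated minus untreated, with 95% confidence intervals; circles resident, squares BMDM), grouped by how the LPS-treated origins compare. Tnf rose by 1.34 in resident cells and 5.30 in BMDM, Nos2 by 1.97 and 13.35, while Thbd fell by 5.92 in BMDM.

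Among 30 genes of LPS sensing and its adaptors, 16 were level with LPS (41.8% of all genes), 7 had converged (5.77%), 8 were apart and higher in BMDM (14.9%) and 2 were apart and higher in resident cells (23.5%). The median was -0.40 against 0.03 for all genes, and the 16 housekeeping genes had the same median of -0.40. Tlr4, the LPS receptor, stood at 817, 932 and 921 in resident libraries and 2102 and 2063 in BMDM. Its difference went from level without LPS (-0.52 ± 0.11) to apart with it (-1.23 ± 0.11), as Tlr4 fell by 0.85 in resident cells and its change was at -0.14 in BMDM. Cd14, the co-receptor, was at 58814, 34994 and 34358 against 77907 and 78181, lower in resident cells (-0.92 ± 0.34) with an adjusted p of 0.0312 in limma, neither apart nor level. Tlr2, the receptor for bacterial lipoproteins, converged, from 2.81 ± 0.11 to -0.03 ± 0.11, with values of 33226, 30124 and 36432 against 33616 and 33924. Irak2, a kinase below MyD88, was level at 7054, 5418 and 6206 against 6524 and 6135. Casp1, the inflammasome protease, had been level without LPS and was 6.01-fold higher in BMDM with it, at 2783, 2778 and 2610 against 16255 and 16450. Tlr3, the receptor for double-stranded RNA, crossed to -3.01 ± 0.17. The 2 genes apart and higher in resident cells were Lbp, LPS-binding protein (315, 541 and 483 against 12.3 and 10.8), and Traf3 (1.57 ± 0.10). Traf3 steers signalling towards interferon. The Cd14 call was lost without any 1 LPS-treated library other than resident replicate 1 (adjusted p from 0.0876 to 0.117), and with library totals set equal (-0.59, adjusted p 0.0820). Under equal library totals, 5 sensing genes in place of 8 were apart and higher in BMDM, and Tlr4 stood at -0.90, still called.

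NF-kB feedback genes mostly met at equal levels. The list held inhibitors of the response and also other induced genes, among them the NF-kB subunits Nfkb1, Nfkb2, Rel and Relb. Of 25 genes, 14 (56.0%) were level with LPS against 41.8% of all genes, and 13 (52.0%) had converged against 5.77%, and both counts were the same under quantile normalization and with library totals set equal. Socs3, which blocks cytokine receptor kinases, rose in BMDM from 206 and 219 to 60744 and 56750. Resident libraries held 50642, 41930 and 48109, so that a gap of 6.47 ± 0.24 without LPS became -0.33 ± 0.24 with it (adjusted p of the limma test for equal levels 0.0223). Nfkbiz, an atypical IkB protein, was at 12833, 12560 and 13861 against 16604 and 16505, lower in resident cells (-0.34 ± 0.09) and yet level. Nfkbib, an IkB protein, was at 6826, 5674 and 6413 against 6168 and 5993, and Cish, a relative of Socs3, at 1876, 1882 and 1742 against 1772 and 1764, with overlapping libraries in each case. The members that stayed apart were split. Tnip3, a partner of the deubiquitinase A20, was 11.6-fold higher in BMDM (1791, 1646 and 1320 against 19099 and 17300), and Atf3, a repressor of cytokine genes, was higher in BMDM (-1.78 ± 0.10). Trib3, a pseudokinase of the stress response, and Dusp5, a phosphatase of ERK kinases, stayed higher in resident cells, at 4.29 ± 0.11 and 2.54 ± 0.07. Socs3 lost the level call without resident replicate 1 or 3 or without either BMDM library of the LPS-treated groups, at adjusted p-values of 0.0518 to 0.107.

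Proinflammatory cytokine genes went in every direction. Without LPS, 25 of 27 were apart and higher in resident cells, against 24.7% of all genes. With LPS, 6 remained so (16.1% of all genes). Another 10 (37.0%) were apart and higher in BMDM against 14.9% of all genes, 9 of these having crossed (2.09% of all genes). Level genes numbered 5 (41.8% of all genes), 4 of them converged (5.77%). The median went from 4.10 to -0.13. Without the libraries carrying Y-linked transcripts, 11 were apart and higher in BMDM and 7 were level.

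Tnf, the first cytokine released on LPS contact, was level. Its values were 65181, 51408 and 62837 in resident libraries and 66514 and 63529 in BMDM. The groups overlapped, and a gap of 3.83 ± 0.14 without LPS had become -0.13 ± 0.14 (adjusted p of the test for equal levels 0.000227). Untreated resident libraries already stood at 21121 to 27090 for Tnf, against 1651 and 1650 in untreated BMDM. Ebi3, a subunit shared by interleukin 27 and interleukin 35, was level as well, at 2964, 2963 and 2911 against 2920 and 2601.

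Il1b, Il6, Il12b, Il27 and Il19 ended higher in BMDM. Il1b stood at 119893, 101091 and 107677 in resident libraries and at 237366 and 227193 in BMDM, with no overlap. Its gap went from 6.74 ± 0.17 without LPS to -1.09 ± 0.17, and it was still called but under 2-fold with library totals set equal (-0.76), and under quantile normalization it was level (-0.38, adjusted p of the test for equal levels 0.00116). Il6, which drives the acute phase response, was at 2049, 2843 and 2402 against 30712 and 27852, 12.1-fold higher in BMDM (-3.60 ± 0.55, adjusted p by limma 0.000193), although untreated BMDM had held 9.12 and 1.00. Il12b, the p40 subunit of interleukins 12 and 23, was at 334, 309 and 314 against 4790 and 4057 (-3.78 ± 0.33). The 3 resident libraries of Il12b lay close together, and both BMDM libraries were far above them. Il27, the partner of Ebi3, was at 2134, 1594 and 1629 against 11078 and 10670 (-2.62 ± 0.27). Il19, an interleukin 10 relative, was at 21.2, 27.9 and 6.87 against 302 and 291 (-4.12 ± 0.57).

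Il1a and Ifnb1 were neither apart nor level. Il1a, the membrane-bound interleukin 1, was at 168966, 167933 and 171867 against 116434 and 120937 (0.52 ± 0.23, adjusted p 0.0635 in limma, and 0.0671 for equal levels). All 3 resident libraries lay above both BMDM libraries, and Il1a was called at 0.84 with library totals set equal and, as apart, at 1.54 under quantile normalization (adjusted p 3.63e-05). On the deposited scale Il1a was called with only the 2 LPS-treated groups in the limma fit (0.52, adjusted p 0.0134). It was also called without untreated resident replicate 1 or 3 (adjusted p 0.0268 and 0.0261) and without the libraries carrying Y-linked transcripts (0.0424). In 4 of 22 alternatives Il1a was level. Ifnb1, interferon beta, was at 372, 492 and 518 against 246 and 318 and was called higher in resident cells by 0.70 ± 0.24 (adjusted p by limma 0.0216). Both untreated BMDM libraries stood at the lowest value of 1. That Ifnb1 call was lost without resident replicate 2 or 3 or BMDM replicate 1 of the LPS-treated groups (0.65, 0.61 and 0.52, adjusted p 0.0617, 0.0729 and 0.173), and under quantile normalization (0.52, adjusted p 0.101).

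Colony-stimulating factor Csf3 was the cytokine with the widest lead in resident cells. It stood at 6638, 5266 and 4726 in resident libraries and at 40.1 and 51.5 in BMDM, a 118-fold difference (6.88 ± 0.35). BMDM did respond, from 1.82 and 4.57 without LPS (3.55 with limma, adjusted p 2.07e-05), and the gap had been 8.61 ± 0.35 before. Ltb, lymphotoxin beta, a product of lymphocytes, was at 1227, 874 and 986 against 46.3 and 52.8 (4.34 ± 0.20). The B lineage markers were higher in the same libraries, as were most T and NK markers but not Lck, as given above. The part of lymphocytes was not tested.

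**Figure D4:**
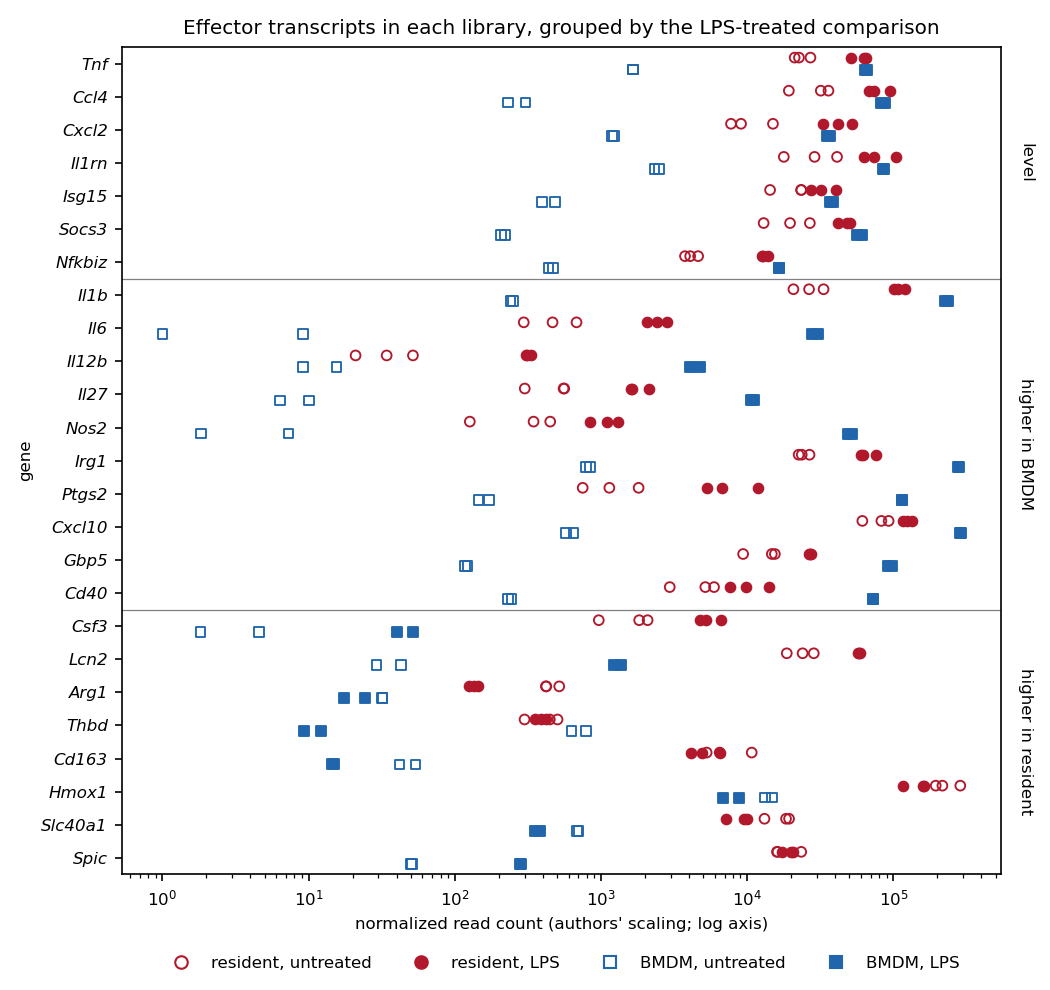
Normalized read count of 25 effector genes (horizontal axis, log scale) in each library, circles for resident and squares for BMDM, open for untreated and filled for LPS-treated; levels are to be compared within a gene. Filled circles and squares coincide for Tnf, Ccl4, Cxcl2, Il1rn and Isg15, squares lie to the right from Il1b to Cd40, and circles lie to the right from Csf3 to Spic.

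Of 10 secreted inhibitors of inflammation, 4 were level, a share near the 41.8% of all genes, 4 were apart and higher in resident cells (23.5% of all genes), and 1 was apart and higher in BMDM. At any size of difference 5 were called higher in resident cells and 3 in BMDM, against 36.7% and 34.5% of all genes. Il1rn, the interleukin 1 receptor antagonist, was level at 104211, 73208 and 62854 against 86731 and 84688, with the BMDM libraries inside the resident range. Il18bp, the decoy for interleukin 18, was level at 1747, 1581 and 1398 against 1666 and 1635. Il10 was at 16924, 11163 and 7852 against 5581 and 5475, higher by 1.04 ± 0.43 at an adjusted p of 0.0497 in limma. The 3 resident libraries of Il10 differed among themselves by over 2-fold. Gdf15, a stress-induced cytokine, and Slpi, a protease inhibitor, stayed higher in resident cells by 6.32 ± 0.18 and 5.29 ± 0.25, and Anxa1, a mediator of resolution, stayed higher in BMDM (-2.83 ± 0.18). The Il10 difference was not apart in 13 of 22 alternatives, among them leaving out resident replicate 1, where it was 0.76 with an adjusted p of 0.145. Il1rn was not level without resident replicate 1 (-0.34) or without either BMDM library of the LPS-treated groups, at adjusted p-values of 0.0688 to 0.0946, nor under quantile normalization, where it was called higher in resident cells (0.65, adjusted p 0.0499).

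CC chemokines, which recruit monocytes, lymphocytes and eosinophils, leaned to BMDM. With LPS, 8 of 12 (66.7%) were apart and higher in BMDM against 14.9% of all genes, 5 of them after crossing, 1 was apart and higher in resident cells and 1 was level, and the median was -1.68. Ccl4 was the level gene, at 94604, 73971 and 68320 against 87414 and 82602, where untreated BMDM had held 232 and 304 and untreated resident libraries 19274 to 35974. Its neighbour in function Ccl3 crossed to 54045, 41562 and 40302 against 100603 and 91542 (-1.10 ± 0.25). Ccl2, which attracts monocytes, was at 6769, 6721 and 4412 against 27520 and 24545 (-2.15 ± 0.25), and Ccl22, a ligand of CCR4 on regulatory T cells, was also lower in resident cells (-2.15 ± 0.22). Ccl5 was at 75417, 58573 and 51010 against 84775 and 79189 and could not be placed (-0.43 ± 0.30, adjusted p in limma 0.228, and not level). Ccl6, produced by BMDM in both states, stayed higher there (2129, 1204 and 1004 against 16009 and 15063), and Ccl8, another monocyte attractant, stayed higher in resident cells by 1.96 ± 0.33. Under equal library totals, 7 of 12 were apart and higher in BMDM, and Ccl3 stood at -0.77, still called. Under quantile normalization the Ccl3 call was lost and the gene was level (-0.44, adjusted p 0.0927, and 0.0305 for equal levels). Ccl4 missed the level call without BMDM replicate 2 (adjusted p 0.0510) and under quantile normalization, where it was called higher in resident cells (0.57, adjusted p 0.0312).

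Chemokines for neutrophils gave a mixed picture. Cxcl2 was level at 51941, 33140 and 41739 against 36964 and 35076, from a gap of 3.07 ± 0.25 without LPS to 0.21 ± 0.25. Cxcl1 was lower in resident cells (-0.86 ± 0.16), at 6424, 7052 and 6431 against 11438 and 12580. Ppbp, a platelet chemokine (3940, 12608 and 9266 against 213 and 317), and Cxcl5 (225, 699 and 366 against 5.14 and 16.3) stayed higher in resident cells, by 4.89 ± 0.56 and 5.23 ± 0.73. Resident replicate 1 was lowest for both and also had the lowest summed megakaryocyte and platelet markers of the 3, 0.06255% against 0.1792% and 0.1125%, and the part of these cells was not tested. Of the interferon-induced chemokines, which attract activated T cells through CXCR3, Cxcl10 crossed to 124534, 134516 and 116310 against 289212 and 284869 (-1.20 ± 0.17, and -0.88 with library totals set equal and -0.62 under quantile normalization, still called), and Cxcl9 was lower in resident cells (-0.94 ± 0.23). Cxcl16, the ligand of CXCR6, was level at 29786, 21982 and 22700 against 27493 and 27372. Cxcl2 missed the level call without either BMDM library of the LPS-treated groups (adjusted p 0.0778 and 0.0584) and with library totals set equal, where it was called higher in resident cells at 0.53, as it was under quantile normalization at 0.61.

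All 42 type I interferon response genes were apart and higher in resident cells without LPS, with a median of 4.36, and none was with LPS. By then 17 (40.5%, against 5.77% of all genes) had converged, 13 (31.0%, against 2.09%) had crossed to BMDM, and 12 were neither level nor apart, with a median of -0.80. BMDM rose by a median of 5.72 and resident cells by 0.55. The scaling set how many were placed in each class: with library totals set equal 25 were level and 7 apart and higher in BMDM, and the median was -0.48. None of the 42 was apart and higher in resident cells under that scaling, under quantile normalization or without the libraries carrying Y-linked transcripts.

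Isg15, a ubiquitin-like modifier, was level at 40445, 31808 and 27271 against 38521 and 36805, where untreated BMDM had 396 and 483. Oas2 (6933, 9079 and 9807 against 9048 and 9149) and Oas1a (15010, 13889 and 13215 against 15465 and 14782), sensors of double-stranded RNA that start RNA decay, were level as well. Reads of Oas1a and its near copies may be shared, so its value is uncertain. Oasl1, a relative that restrains Irf7 translation, was at 69174, 66128 and 69716 against 46130 and 53367, level and yet called higher in resident cells (0.46 ± 0.16). The guanylate-binding proteins, GTPases that attack vacuoles of intracellular bacteria, ended higher in BMDM. Gbp5 was at 27478, 26955 and 26320 against 92234 and 97547 (-1.82 ± 0.18) and Gbp2 at 18750, 20457 and 15712 against 109885 and 110876 (-2.60 ± 0.19). Gbp3 followed at -2.36 ± 0.18, and in all 3 genes every BMDM library lay above every resident library. Isg15 and Oasl1 missed the level call without BMDM replicate 2 of the LPS-treated group (adjusted p 0.0506 and 0.0952), and Oasl1 also with library totals set equal, at 0.79, and under quantile normalization, at 0.96.

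Promoters are shown for 4 of these effectors, 2 that were level with LPS (Isg15, Cxcl2) and 2 that were higher in BMDM (Il6, Gbp5), to set the letters of the best known LPS-responsive elements beside their values. The sequences are the 250 bases before the start of each gene in RefSeq (GRCm38.p6), written 5′ to 3′ on the strand of the gene, with capitals for matches on either strand to the NF-kB (κB) consensus and to the core of the interferon-stimulated response element (ISRE), GAAANNGAA. They lie at chr4:156200819-156201068 on the minus strand, chr5:90903649-90903898 and chr5:30012864-30013113 on the plus strand and chr3:142496684-142496933 on the plus strand.
Isg15: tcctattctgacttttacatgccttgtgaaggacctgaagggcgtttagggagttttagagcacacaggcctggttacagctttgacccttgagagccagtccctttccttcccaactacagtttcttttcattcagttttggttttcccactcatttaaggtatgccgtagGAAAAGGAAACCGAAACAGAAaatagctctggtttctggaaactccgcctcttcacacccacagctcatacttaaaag
Cxcl2: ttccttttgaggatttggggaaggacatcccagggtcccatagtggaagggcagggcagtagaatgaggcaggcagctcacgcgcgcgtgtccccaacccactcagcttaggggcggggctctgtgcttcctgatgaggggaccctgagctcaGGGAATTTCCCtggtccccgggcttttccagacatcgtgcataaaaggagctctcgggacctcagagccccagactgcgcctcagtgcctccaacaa
Il6: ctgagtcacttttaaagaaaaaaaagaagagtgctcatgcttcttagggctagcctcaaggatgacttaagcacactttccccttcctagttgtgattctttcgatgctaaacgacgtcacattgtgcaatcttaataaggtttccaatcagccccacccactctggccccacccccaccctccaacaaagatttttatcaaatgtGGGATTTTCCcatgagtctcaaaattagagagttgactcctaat
Gbp5: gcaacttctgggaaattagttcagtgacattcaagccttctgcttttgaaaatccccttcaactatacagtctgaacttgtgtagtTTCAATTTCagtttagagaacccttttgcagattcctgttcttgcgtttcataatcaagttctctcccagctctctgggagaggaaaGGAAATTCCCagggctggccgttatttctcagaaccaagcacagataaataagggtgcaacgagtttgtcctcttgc
In Isg15 the capitals are 3 overlapping ISRE cores between bases 78 and 58 before the start. In Cxcl2 they are a κB match read on both strands at 97 to 87, in Il6 a κB match at 44 to 35, and in Gbp5 an ISRE core at 164 to 156 and a κB match at 77 to 68, both on the opposite strand. These 4 promoters were picked by hand, and whether either element bears on the outcome of a gene was not tested. Of all 27025 promoters of the RefSeq table, 3.75% held the κB consensus and 7.16% the ISRE core in this window, and of the 10958 tested genes with an entry 4.52% and 6.58%. Among converged genes 41 of 645 (6.36%) held κB and 49 (7.60%) the ISRE core. Among the 383 of them that were higher in resident cells without LPS, the starting order of the genes that crossed to BMDM, the shares were 8.09% and 9.92%. Among genes that crossed to BMDM the counts were 14 of 169 (8.28%) and 42 (24.9%). A match in the letters is a description and not a binding site.

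Genes behind the nitric oxide, arginine and itaconate effectors of macrophages differed in outcome. Nos2, which makes nitric oxide from arginine, was at 1308, 1092 and 846 in resident libraries and at 52032 and 49298 in BMDM, 47.5-fold higher there. The gap turned from 5.81 ± 0.53 without LPS, when BMDM held 7.29 and 1.83, to -5.57 ± 0.53, and Nos2 was apart under all 22 alternatives. Slc7a2, the arginine importer, crossed as well, at 14820, 13489 and 13104 against 61949 and 68072 (-2.24 ± 0.24). Irg1, which makes itaconate, was at 76283, 59723 and 62000 against 277608 and 279412 (-2.09 ± 0.13). Arg1 and Arg2, the arginases that compete for arginine, stayed higher in resident cells: Arg1 at 135, 124 and 143 against 17.5 and 24.4 (2.64 ± 0.19), and Arg2 at 2049, 1240 and 1277 against 192 and 206 (2.89 ± 0.34). Ass1 and Asl, which rebuild arginine from citrulline, were level, and Ass1 missed that call without BMDM replicate 1 of the LPS-treated group (adjusted p 0.106). Over the 9 genes of this list 3 were level, 3 apart and higher in BMDM and 2 apart and higher in resident cells, against 41.8%, 14.9% and 23.5% of all genes.

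Of 6 phagocyte oxidase genes 4 were level with LPS and 4 without, against 41.8% and 41.6% of all genes. Rac2, a small GTPase of the complex, was level at 8366, 8380 and 8999 against 8760 and 8489. Cybb, the catalytic subunit gp91phox, diverged, from 0.14 ± 0.10 without LPS to -1.42 ± 0.10, as it rose to 99835 and 107298 in BMDM and stood at 39758, 38844 and 37293 in resident libraries. Under quantile normalization Cybb was at -0.77, still called.

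None of the 12 eicosanoid and oxysterol genes was level with LPS, against 41.8% of all genes. Ptgs2, the inducible cyclooxygenase, was 15.3-fold higher in BMDM, at 11882, 6691 and 5303 against 113877 and 115213 (-3.93 ± 0.36). Ptgs1, the constitutive cyclooxygenase, went the other way, at 2214, 2929 and 2124 against 105 and 130 (4.35 ± 0.16). Megakaryocyte and platelet markers were also higher in the resident libraries, for 9 of 10 genes, and their part in the Ptgs1 difference was not tested. Ch25h, which makes the antiviral oxysterol 25-hydroxycholesterol, crossed to 507, 409 and 217 against 15133 and 14345 (-5.37 ± 0.36). Alox15, a lipoxygenase of resident macrophages and eosinophils, stayed higher in the resident libraries by 4.90 ± 0.45, where 12 of 13 eosinophil, basophil and mast cell markers were also higher. In all, 4 genes were apart and higher in resident cells and 3, all crossed, apart and higher in BMDM, against 23.5% and 14.9% of all genes. Under equal library totals 3 of the 12 were level.

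Secreted antimicrobial and acute phase genes stayed furthest apart. Of 18 genes, 14 (77.8%, against 23.5% of all genes) were apart and higher in resident cells and 4 apart and higher in BMDM, none was level, and the median was 8.05 against 8.38 without LPS. Lcn2, which starves bacteria of iron by binding their siderophores, was at 58200, 58687 and 57048 in resident libraries and 1369 and 1237 in BMDM (5.48 ± 0.18), although BMDM rose from 29.2 and 43.0. Ngp (102939, 125751 and 120949 against 51.4 and 58.2), Camp (27021, 33130 and 31501 against 15.4 and 14.9) and Ltf (21799, 24599 and 27685 against 14.4 and 13.5) encode proteins of neutrophil granules. These 3 genes also belong to the neutrophil marker list, as do S100a8, S100a9, Mpo, Elane, Ctsg and Prtn3 of the 18 genes. The 17 members of the marker list were all higher in the resident libraries, with Ly6g and Retnlg at no reads in BMDM. The part of neutrophils in these differences, in the Lcn2 difference, and in the counts and median of the 18 genes, was not tested. Saa3, an acute phase protein of macrophages, crossed to 7404, 10739 and 10038 against 77798 and 63437 (-2.92 ± 0.27), and its reads could be shared with other serum amyloid genes. Ptx3, a soluble pattern recognition protein, was at 715, 1073 and 952 against 2371 and 2482 (-1.43 ± 0.46, adjusted p by limma 0.0183), and Lyz1, lysozyme, whose reads can be shared with Lyz2, stayed higher in BMDM (-2.77 ± 0.23). The Ptx3 call was lost without resident replicate 1 (-1.26, adjusted p 0.0522) and without either BMDM library of the LPS-treated groups (-1.46 and -1.40, adjusted p 0.0766 and 0.0892). With library totals set equal Ptx3 was at -1.10 with an adjusted p of 0.0658, and 3 genes in place of 4 were apart and higher in BMDM.

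**Figure D5:**
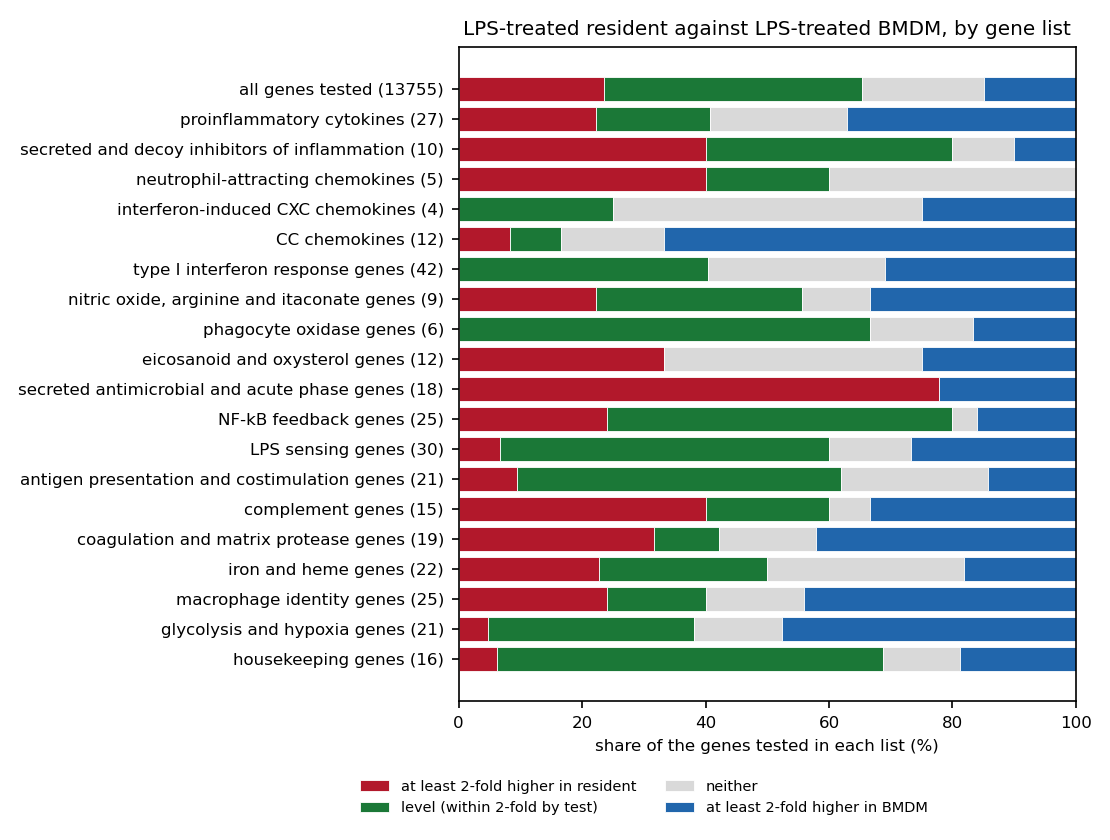
Share of the tested genes of each list (horizontal axis, percent; number of genes in parentheses) that were at least 2-fold higher in LPS-treated resident cells, level, at least 2-fold higher in LPS-treated BMDM, or neither, with all genes tested at the top. NF-kB feedback genes are level in 56.0% and antimicrobial genes in 0 of 18 cases, and CC chemokines are higher in BMDM in 66.7%.

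Antigen presentation genes were level for 11 of 21 (41.8% of all genes), and 8 of these had converged (5.77% of all genes). There were 3 apart and higher in BMDM, a share near the 14.9% of all genes, and 2 apart and higher in resident cells (23.5%). Without the libraries carrying Y-linked transcripts, 5 (23.8%, against 15.2% of all genes) were apart and higher in BMDM. In that fit 10 were level and 5 had converged. H2-K1, a classical MHC class I heavy chain, was level at 90211, 80222 and 79184 against 86874 and 85225, and Cd80, a costimulatory ligand, at 418, 426 and 406 against 430 and 443. Its fellow ligand Cd86 stayed higher in resident cells, at 15691, 13538 and 13502 against 5743 and 5841 (1.29 ± 0.16). Cd40, which receives help from T cells, crossed to 14004, 9828 and 7621 against 72539 and 72570 (-2.84 ± 0.29). Icam1, the adhesion partner of LFA-1, was at 48603, 45255 and 51387 against 97875 and 98297, and at -1.02 ± 0.14 it lay at the 2-fold line. Psmb9, an immunoproteasome subunit, crossed to -1.21 ± 0.09. With library totals set equal Icam1 was at -0.70 and level, as under quantile normalization (-0.37), Psmb9 was at -0.89, and Cd40 alone of the 3 was still apart. Without resident replicate 2 of the LPS-treated group Icam1 was at -0.97.

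Complement genes went in several directions. C3, the central component, converged to 27537, 24368 and 23695 against 23860 and 25085 (0.04 ± 0.10, from 3.67 ± 0.10 without LPS). C1qc, a chain of C1q, was level in both states, at 22678, 17164 and 16567 against 19660 and 19927 with LPS. The chains of C1q did not all go together. C1qb was at 37772, 26909 and 24745 against 31948 and 30948. C1qa was higher in every resident library, at 32217, 22161 and 20383 against 7021 and 6820. Without LPS, C1qa was at 49791, 35278 and 30991 against 8438 and 8345. C3ar1, the receptor of the C3a fragment, stayed higher in BMDM, at 1894, 1448 and 1506 against 23202 and 23144 (-3.85 ± 0.16). C1ra, the protease of the C1 complex, crossed to -2.16 ± 0.11. Cd55, which shields cells from complement, stayed higher in resident cells by 5.52 ± 0.26 and C4b by 4.36 ± 0.34, the latter with reads that can be shared with its near copy C4a. Of 15 genes, 6 were apart and higher in resident cells, 5 apart and higher in BMDM and 3 level, against 23.5%, 14.9% and 41.8% of all genes.

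Coagulation and matrix genes held some of the widest changes. Thbd, thrombomodulin, which turns thrombin towards anticoagulation, was at 386, 421 and 355 in resident libraries and 9.25 and 12.2 in BMDM, 33.3-fold higher in resident cells. Before LPS it had been at 628 and 787 in BMDM, so it fell by 5.92, while in resident cells it was at -0.08, and the gap went from -0.79 ± 0.22 to 5.06 ± 0.22. Thbs1, thrombospondin 1, a platelet and matrix protein, diverged to 21639, 30240 and 26820 against 1416 and 1508 (4.15 ± 0.26), as it rose in resident cells by 1.00 and, in BMDM, fell by 2.83. F5, coagulation factor V, stayed higher in resident cells by 4.63 ± 0.42. The part of megakaryocytes and platelets in the F5 and Thbs1 differences was not tested. Timp1, an inhibitor of matrix proteases, was at 127, 63.3 and 58.9 against 4800 and 3846 (-5.77 ± 0.33). Mmp12, macrophage elastase, stayed higher in BMDM, at 1686, 807 and 648 against 151952 and 164629. Plaur, the urokinase receptor, converged to 19336, 16296 and 16629 against 15286 and 14628. Of 19 genes 8 were apart and higher in BMDM, 6 apart and higher in resident cells and 2 level, against 14.9%, 23.5% and 41.8% of all genes.

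Heme and iron genes varied. The gap between origins changed for 10 of 22 with LPS, a share near the 41.8% of all genes. In both states 7 (31.8%, against 23.8% of all genes) were apart in the same direction. Hmox1, heme oxygenase, was at 161359, 116991 and 158256 against 8800 and 6841, 18.6-fold higher in resident cells (4.21 ± 0.21 with LPS and 4.04 ± 0.21 without). Slc40a1, the iron exporter ferroportin, was at 9564, 7217 and 9947 against 381 and 356 (4.58 ± 0.17 and 4.59 ± 0.17), and it fell with LPS by 0.92 in resident cells and by 0.91 in BMDM. Spic, the transcription factor of iron-recycling macrophages, was at 20708, 17320 and 19792 against 285 and 279 (6.09 ± 0.15, from 8.46 ± 0.15), as it rose in BMDM from 51.0 and 50.3. The Cd163 gap went from 7.21 ± 0.27 to 8.34 ± 0.27. Cp, ceruloplasmin, the ferroxidase that works with ferroportin, crossed to 215, 248 and 199 against 4161 and 3993 (-4.21 ± 0.20), and Steap3, a ferrireductase, stayed higher in BMDM (-2.70 ± 0.25). Slc11a2, an iron importer, converged to 5399, 4180 and 4618 against 5369 and 5345, and Aco1, the iron regulatory protein, was level in both states. Of 22 genes 5 were apart and higher in resident cells, 4 apart and higher in BMDM and 6 level, against 23.5%, 14.9% and 41.8% of all genes. With library totals set equal, 9 were apart and higher in resident cells and 3 in BMDM.

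Among macrophage identity genes 14 of 25 (56.0%, against 23.8% of all genes) were apart in the same direction in both states. The gap changed for 18, against 41.8% of all genes. Vcam1, the adhesion molecule of island macrophages, stayed higher in resident cells, at 76315, 64879 and 68689 against 10900 and 11500. Its gap narrowed from 7.20 ± 0.16 to 2.64 ± 0.16, as BMDM rose from 531 and 432 and resident cells were at -0.01. Timd4, a receptor for apoptotic cells, stayed higher in resident cells by 4.98 ± 0.23. Gpnmb, a transmembrane glycoprotein of phagocytes, was at 3867, 1606 and 1409 against 337066 and 355583 (-7.39 ± 0.40), and Trem2, a lipid receptor, at 792, 346 and 331 against 19546 and 20061 (-5.46 ± 0.43). Resident replicate 1 held more than 2-fold as much of Gpnmb and of Trem2 as either of the others. Siglec1, the sialoadhesin of island macrophages, converged to 2397, 2700 and 3383 against 3345 and 3405, and Spi1, which encodes the transcription factor PU.1, was level at 26319, 21525 and 25153 against 26601 and 24038. Of 25 genes 11 (44.0%, against 14.9% of all genes) were apart and higher in BMDM with LPS, as were 11 without it. Another 6 (24.0%) were apart and higher in resident cells, a share near the 23.5% of all genes, and 4 were level.

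Glycolysis and hypoxia genes leaned to BMDM, with 10 of 21 (47.6%, against 14.9% of all genes) apart and higher there, 1 apart and higher in resident cells, 7 level and a median of -0.86. Without LPS 8 of the 21 were already apart and higher in BMDM, against 15.1% of all genes. Slc16a3, the lactate exporter, stayed higher in BMDM at 466, 576 and 606 against 4754 and 4429 (-3.07 ± 0.27), and Bnip3, a mitophagy receptor, at 123, 138 and 107 against 1538 and 1272 (-3.51 ± 0.14). Ldha, lactate dehydrogenase, was level in both states, at 37924, 31347 and 27966 against 34867 and 32729 with LPS. Egln3, an oxygen sensor, was the gene apart and higher in resident cells (1.80 ± 0.41), after a fall by 2.40 in BMDM. Its call was lost under quantile normalization (0.88, adjusted p by limma 0.0540). Under equal totals, 6 of the 21 were apart and higher in BMDM. Of 16 housekeeping genes used for scale, 10 were level with LPS, with Eef2 at 50154, 49153 and 51128 against 48539 and 48569. Gusb was 12.5-fold higher in BMDM and Polr2a 2.23-fold higher in resident cells. The housekeeping median was -0.40. At any size of difference 9 were called higher in BMDM and 4 in resident cells, against 34.5% and 36.7% of all genes.

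By size alone, the converged genes with the widest gap before LPS were Olfr56, Ccl4, Oasl1, Socs3, Heatr9, Trim30b, Cish and Isg15. Olfr56 was at 408, 497 and 447 against 456 and 486 with LPS, after 2.73 and 1.00 in untreated BMDM. Trim30b, of a family of ubiquitin ligases, was at 997, 986 and 827 against 829 and 983. Heatr9 was at the lowest value of the scale in untreated BMDM and at 232 and 237 with LPS, against 211, 270 and 254 in resident cells. It missed the level call without BMDM replicate 2 of the LPS-treated group (0.07). All 8 were higher in resident cells without LPS, and their rise in BMDM ran from 6.09 for Trim30b to 8.31 for Ccl4.

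The diverged genes with the largest difference were level before LPS and moved in BMDM. Itgb8, an integrin chain that activates TGF-beta, rose in BMDM from 2.73 and 1.83 to 1068 and 1250 and was at 5.54, 10.7 and 6.87 in LPS-treated resident libraries (-7.10 ± 0.33). Slc28a2, a nucleoside transporter, rose to 32380 and 31434 against 1417, 1085 and 907 (-4.83 ± 0.16), and Sectm1a to 85.3 and 106 against 2.77, 1.07 and 1.96. Plekhg3 fell in BMDM from 1518 and 1493 to 24.7 and 33.9, against 1144, 1032 and 1276 (5.26 ± 0.17). Tbc1d2, a Rab regulator, fell there from 427 and 442 to 25.7 and 40.6, against 481, 458 and 485. The sixth was Thbs1, given above. The number of diverged genes rested on the untreated BMDM libraries, with 488 without replicate 1 of that group and 475 without replicate 2.

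Besides Nos2 and Ch25h, the largest crossed genes included Mycl, Vcan and Ccdc63. Mycl, a MYC family transcription factor, was at 187, 159 and 71.6 against 3358 and 3632, and Vcan, the matrix proteoglycan versican, at 393, 441 and 439 against 10239 and 10503. Ccdc63 was at 1.85, 3.22 and 5.89 against 103 and 98.9. In each of these genes both BMDM libraries lay above every resident library.

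The widest differences of all were mostly present before LPS. In resident libraries they were beta globins and neutrophil granule genes. Hbb-b1 was at 22914, 16064 and 17630 against 2.06 and 2.71, Hbb-bs at 12504, 8674 and 9578 against 1.03 and 1.35, and Retnlg, a neutrophil product, at least 1480-fold higher, counted against a floor of 3 reads per library. Hbb-b2 and Hbb-bt held identical values, at least 1030-fold higher by the same floor, and the near-identical beta globin genes may share reads. The erythroid and neutrophil marker lists given above moved with these genes, and their part was not tested. In BMDM the widest were Mamdc2 (2.77, 5.37 and 1.96 against 2159 and 2544), Gpnmb, Dpep2, Qpct and Mmp12, with Fat3, a protocadherin, at least 99-fold higher. Cav1, the coat protein of caveolae, stood at 161, 169 and 87.3 against 18373 and 20832 and had widened from -3.98 ± 0.27 to -7.19 ± 0.27, and Tnfaip8l3, a lipid transfer protein, rose in BMDM from 1.00 and 4.57 to 352 and 393.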

How the data were processed

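RNA sequencing libraries of 10 samples were deposited as a single table of normalized read counts, a signal that the authors made by dividing gene reads by 1 factor per library; reads had been aligned with HISAT 0.1.7 to mm10, per the submitters' processing notes, and the counter, annotation and normalization method were not given in the sources used here. All values above 1 and under 1000 reads were whole multiples of 1 step per library within a tolerance of 0.02. The lowest value of each library is 1. It stands for no reads where the step was above 1, in resident replicate 2 and both BMDM libraries of the LPS-treated groups. In the other libraries the step was below 1, so that the lowest value may stand for no reads or for 1 read. Log2(value + 1) was fitted with limma 3.58.1 in R 4.3.3 (trended empirical Bayes, 4 groups, no covariates), after leaving out 54 genes that did not reach 10 in at least 2 libraries. The level call used a pair of one-sided tests against a 2-fold difference. Sums over marker lists are percents of each library's deposited total. Groups were taken from the source labels. Named genes were a set of effectors, the largest differences, the largest converged, diverged and crossed genes, and up to 2 genes per list and class. The comparison, gene lists and named effectors were chosen with earlier results of these data known. Promoters were matched by symbol for 10958 of the 13755 tested genes. Scripts were tested on simulated data. Alternatives covered pseudocount, filter, scaling, moderation, weights, thresholds and each library left out. List counts under other scalings were added after seeing the data. A few results are not reported here because they concern items withheld from this text.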

Additional observations from a re-analysis of the deposited data

Results flagged for a closer look

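The results below have a gap between origins that changed with LPS, by limma's test of the interaction of origin and LPS. The change is the LPS-treated difference minus the untreated difference, in log2 units, and a negative value means that BMDM gained on resident cells. Adjusted p-values ran from 4.61e-09 for Irg1 to 0.0374 for Cd163.

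Among cytokines and their inhibitors the change was -7.83 for Il1b, -8.00 for Il1a, -3.96 for Tnf, -10.26 for Il6, -5.20 for Il12b and -8.27 for Il27. It was -3.85 for Il10, -3.65 for Il1rn, -1.72 for Csf3 and -4.86 for Ifnb1. BMDM gained on resident cells in all 10, among them Csf3, where resident cells kept a 118-fold lead.

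Among chemokines it was -4.74 for Ccl3, -6.84 for Ccl4, -8.31 for Ccl5, -4.87 for Ccl2, -4.65 for Cxcl1, -2.87 for Cxcl2, -9.53 for Cxcl9 and -8.19 for Cxcl10. Ccl3 and Ccl4 thus gained by different amounts and ended on different sides of the 2-fold line, while Ccl3 fell inside that line with library totals set equal.

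Enzymes of small-molecule effectors changed by -11.38 for Nos2, -6.98 for Irg1, -1.14 for Arg1 and -6.80 for Ptgs2. The Nos2 value was the most negative of the 36 listed here. Antimicrobial and acute phase genes changed by -6.33 for Saa3, -3.85 for Lcn2 and -4.86 for Ptx3. Surface molecules changed by -7.07 for Cd40, -4.79 for Icam1 and -4.56 for Vcam1.

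Interferon response and feedback genes changed by -5.71 for Isg15, -8.55 for Gbp5, -6.80 for Socs3 and -3.52 for Nfkbiz. The transcription factor gene Spic changed by -2.38 and the LPS receptor gene Tlr4 by -0.71. Only Cd163 (1.14) and Thbd (5.84) of the 36 changed towards resident cells, and both fell with LPS in BMDM.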

How the results depend on the processing

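Of 3143 values of named genes under 22 alternatives, 3040 stayed on their side of the threshold: 2961 with the same sign, and 79, of 28 genes called neither way, with the other sign. Of these 79, 51 came under quantile normalization, equal totals or voom, the largest being Actb at 0.72 under quantile normalization. Of 38 named level genes 29 were level in every alternative, and of 99 apart 88 were apart in every alternative. Counts moved by more than 1.5 times in 7 cases: with a filter at 100 the genes apart in both states numbered 2153, quantile normalization left 171 crossed genes, a limit of 1.5-fold left 2090 level, 196 converged and 190 diverged genes, and diverged genes fell to 488 and 475 without untreated BMDM replicate 1 or 2. Leaving out each library gave 8370 to 10285 genes called with LPS, 8367 to 10058 without, 4774 to 6062 level, 4303 to 5951 with a changed gap, 556 to 895 converged, 3106 to 3319 apart in both states, 475 to 825 diverged and 252 to 310 crossed. Where it left 1 BMDM library in a group, that library was assumed to vary like the others.

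Genes not called as deposited that were called with the other sign were near 0 as deposited. Under quantile normalization Tnf was at 0.44, Il1rn 0.65, Ccl4 0.57, Tlr2 0.31, Irak2 0.25, H2-K1 0.63, Spi1 0.28 and Ldha 0.29. With library totals set equal Il18bp was at 0.25, Tlr2 0.30, Irak2 0.29, H2-K1 0.27 and Spi1 0.26, and the last 4 were the same with voom on recovered reads, an alternative chosen after seeing the data. Of the calls, 51.5% were higher in resident cells as deposited, 68.2% with equal totals, 67.1% with voom and 45.5% under quantile normalization. The cause was not tested. A pair of count-based alternatives on recovered reads was not run. No paired analysis was run because the labels give the groups no shared replicate numbers. Y-linked reads lay in replicate 1 of both resident groups. Megakaryocyte and platelet sums kept 1 order over replicates 1 to 3, 0.05017%, 0.1783% and 0.131% without LPS and 0.06255%, 0.1792% and 0.1125% with it. Erythroid sums did not, at 0.1252%, 0.1406% and 0.1864% and 0.1809%, 0.145% and 0.1568%. If resident libraries of both states share animals, the fit ignored it, and this was not tested.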

Other observations

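The shift in scale between origins was itself measurable: the deposited values of LPS-treated BMDM summed to 38.77 and 38.6 M, and those of untreated BMDM to 24.7 and 25.96 M. Resident libraries summed to 26.55 to 30.96 M without LPS and 29.9 to 32.4 M with it.

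Rn45s, a ribosomal RNA precursor, stood at 1219800 in untreated BMDM replicate 2 and at 57340 to 401980 in the other 9 libraries.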
